A study of Sus scrofa with 8 samples.

Results

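Glycolysis, the pentose phosphate pathway and the citrate cycle were described in backfat, the subcutaneous fat of the back, through a list of 51 genes. A gene was measured here if the array held a probe set annotated with its symbol and no other, and 44 of the 51 were, out of 6006 named genes tested. HK2, ALDOA, PGAM1, PFKFB3, PDHX, PDK1 and PDK2 had no such probe set and were not analysed here. Where a gene had several probe sets, the one with the highest mean was used, and each of the 44 genes passed the filter on low values.

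The study compared 2 breeds of pig, labelled KNP and YS, raised under the same conditions, with 4 backfat samples each and 1 Affymetrix porcine array per sample. Age was 7 months for KNP and 6 months for YS, so breed and age cannot be told apart. A label names Yorkshire for YS, and none explains the abbreviation KNP. Sex is not stated, no treatment is named, and the labels do not say whether samples came from separate animals, so p-values measure only the spread between these samples, which may be technical. Values are log2(signal + 16), are listed in the order of replicates 1 to 4, and are given as mean ± SD over 4 arrays. A difference is the KNP mean minus the YS mean on that scale, with its SE or 95% interval from limma. As arrays do not allow levels of different probe sets to be compared, each gene was set only against itself; where isoforms of a step are paired, only the breed difference of their within-array log2 ratio has a meaning, not its size.

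Glycolysis splits glucose into pyruvate, which is either reduced to lactate or oxidised by the pyruvate dehydrogenase complex to acetyl-CoA for the citrate cycle. The pentose phosphate pathway branches off at glucose 6-phosphate and makes NADPH. In fat cells these routes supply the glycerol backbone, the citrate and the NADPH from which fat is made, so they are tied to lipid storage as much as to energy.

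The arrays differed in more than breed. The no-target level, taken from the 95th percentile over 23 controls for which pig RNA holds no target, lay between 40.6 and 161 in signal, and 41 of the 44 genes were above it on all 8 arrays (4520 of the 6006). The 3' minus 5' difference of the actin, GAPDH and elongation factor controls, which grows as RNA breaks, was 9.13 on KNP replicate 1, 5.92 on KNP replicate 2 and 4.43 on YS replicate 4, and between 2.12 and 3.18 on the other 5 arrays. Of 8 adipocyte markers 6 were measured, and all were above the no-target level on every array, with a summed signal of 80016 to 110136 in KNP and 74060 to 97376 in YS. The hormone ADIPOQ was at 7.43 on KNP replicate 1, 8.80 on KNP replicate 2 and 9.18 on YS replicate 4. Elsewhere it was between 11.18 and 12.42. LIPE was lowest on the same arrays, at 11.40 to 12.94 there against 13.02 to 14.26 elsewhere. The remaining adipocyte markers did not share this pattern. LEP (12.33) and FABP4 (15.78) peaked on KNP replicate 1. LPL was lowest on that array only (13.38 there, 14.22 for YS replicate 4). PNPLA2 was lowest for YS replicate 4 (12.99) but reached 13.95 for KNP replicate 2. Of 25 skeletal muscle markers 14 were measured: their summed signal was 86042 on KNP replicate 2, against 1830 to 3223 on the other KNP arrays and 1442 to 2482 in YS. All 14 were above the no-target level on KNP replicate 2 and between 4 and 10 of them elsewhere, and none was at 0. Of red blood cell markers 2 of 7, of macrophage markers 3 of 7, of endothelial markers 3 of 4 and of fibroblast markers 3 of 5 were measured, and the summed signal of each list overlapped between breeds. In bulk tissue, fewer cells of a type and less RNA per cell cannot be told apart.

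Between the breeds, no gene of these pathways was separated by the test. Of the 44, 0 passed an adjusted p of 0.05, against 0% of all named genes, and the smallest adjusted p was 0.9998. An unadjusted p under 0.05 was reached by 0 of 44, against 2.35% of named genes. No gene had all KNP arrays above all YS arrays (1.25% of named genes) or all below (0.833%), and breed means were at least 2-fold apart for 0 of 44 (2.85%). There were 19 genes with the higher mean in KNP and 25 with the lower, and the median difference was -0.04, beside 0.01 over all named genes.

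These counts do not show that the breeds had equal levels. The 95% interval of the difference lay wholly within 2-fold either way for 19 of the 44 genes (43.2%, and 52.5% of named genes), and for the other 25 it reached past 2-fold. The median SE of a difference was 0.36 for these genes and 0.33 for all. Differences ran from -0.70 for PDHB (1.62-fold higher in YS) to 0.69 for ENO2 (1.62-fold higher in KNP). The tightest intervals were those of the fumarate hydratase gene FH, -0.60 to 0.45, and the glycogen phosphorylase gene PYGL, -0.48 to 0.58. The widest were those of PFKM, -1.65 to 2.21, and PDHB, -2.28 to 0.89.

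**Figure D1:**
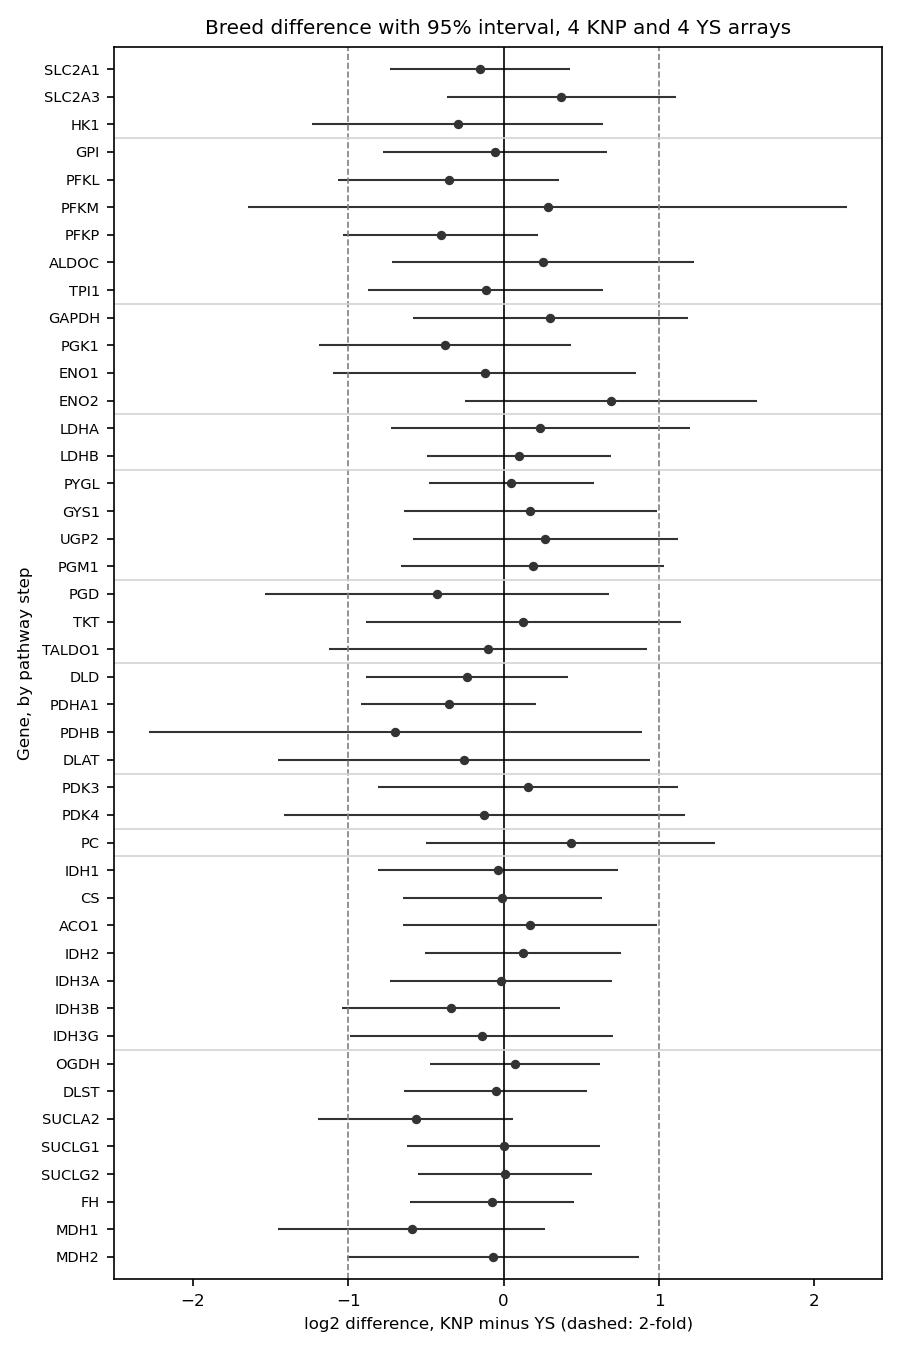
Points are the difference in log2(signal + 16), KNP minus YS, for 44 genes ordered by pathway step (grey lines part the steps), and bars are 95% intervals from limma over 4 KNP and 4 YS arrays. Every interval crosses 0, and 25 of them reach past a dashed line at 2-fold.

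Within each breed the arrays differed over much of the list. YS replicate 4 held the lowest of the 8 values for 25 of 44 genes (56.8%, and 20.5% of all named genes). YS replicate 1 held the highest for 14 (31.8%, and 10.04%). KNP replicate 2, the array with the muscle markers, held the highest for 10 (22.7%, and 15.2%). KNP replicate 1 also held the highest for 10 (22.7%, and 20.6%). On YS replicate 1, 3 of the 44 were below their own mean over the 8 arrays (48.2% of all named genes), and on YS replicate 4, 37 were (49.8%). Set directly side by side, 39 of the 44 were higher on YS replicate 1 than on YS replicate 4, by a median of 0.96, where 49.2% of all named genes were higher and the median was -0.02. KNP replicates 1 and 2 each had 16 of the 44 below their mean (43.5% and 44.5% of all named genes), and KNP replicates 3 and 4 had 30 and 35 (50.4% and 52.03%). The members' median deviation was 0.19, 0.14, -0.14 and -0.21 on KNP replicates 1 to 4 and 0.35, 0.10, 0.19 and -0.54 on YS replicates 1 to 4. YS replicate 4 also had the highest no-target level, 161, and the highest median signal, 263, with a 3' minus 5' difference of 4.43, and YS replicate 1 had 78.5, 159 and 2.58. Their part in these counts was not tested.

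**Figure D2:**
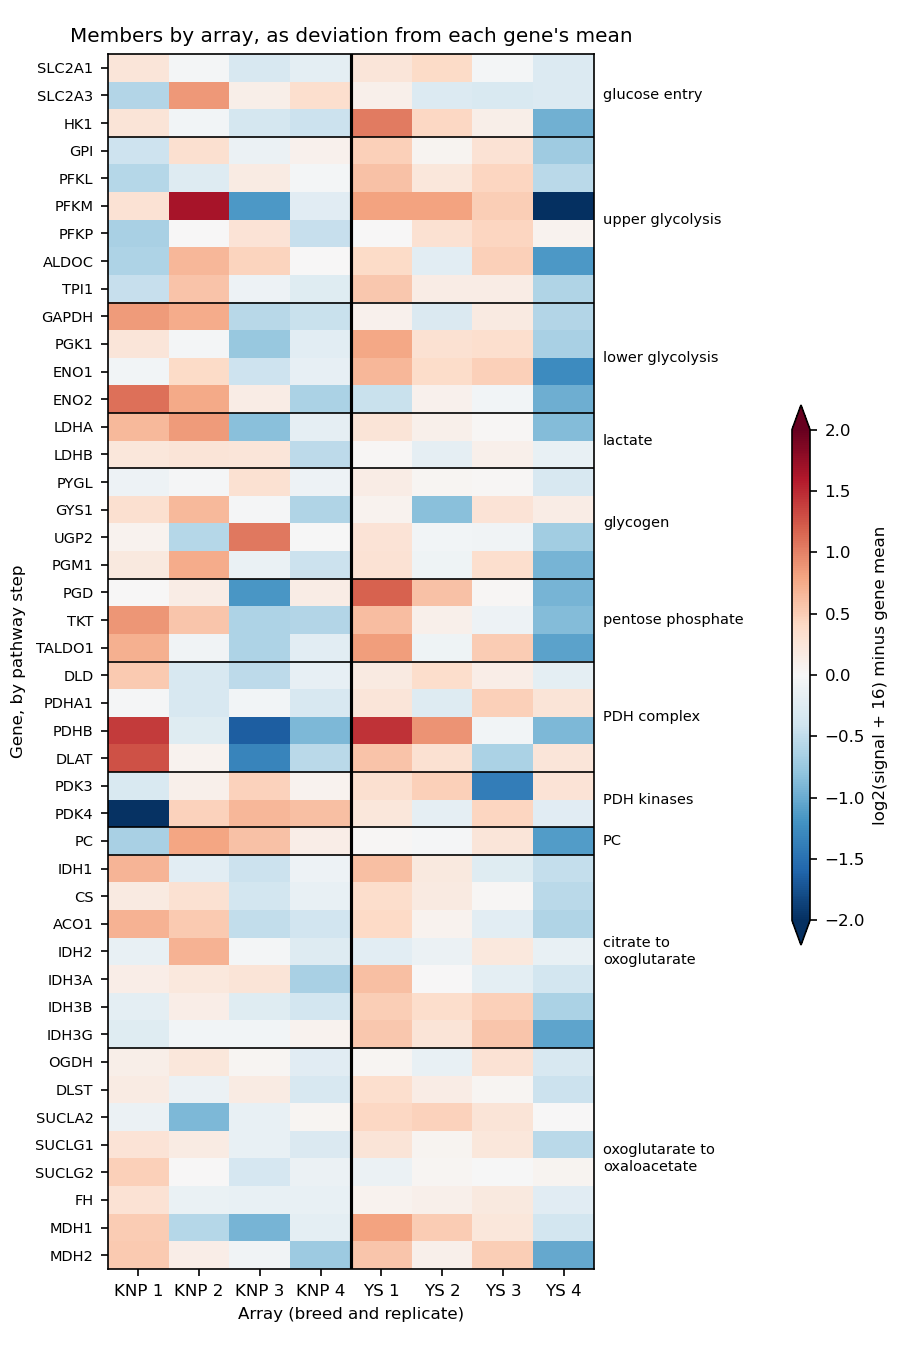
Each cell is log2(signal + 16) on 1 array minus the gene's mean over 8 arrays, for 44 genes in rows by pathway step and 8 arrays in columns (red above, blue below; colours stop at 2 either way). The column of YS replicate 4 is blue for 37 genes and that of YS replicate 1 red for 41.

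Glucose entry was represented by the transporter genes SLC2A1 and SLC2A3 and by HK1, the hexokinase that traps glucose as its phosphate. SLC2A3, a high-affinity transporter, was at 9.33, 10.78, 10.03 and 10.25 in KNP and 10.01, 9.64, 9.60 and 9.64 in YS, with a difference of 0.37 ± 0.33 (SE). The lowest and the highest value both belonged to KNP, on replicates 1 and 2, and the breeds overlapped. SLC2A1, the transporter for basal uptake in many cells, was at 8.86, 8.58, 8.30 and 8.42 in KNP and 8.85, 9.004, 8.57 and 8.34 in YS, a narrow range within which the breeds mixed. Its difference was -0.15, with a 95% interval of -0.73 to 0.43. HK1 was at 11.79, 11.48, 11.18 and 11.11 in KNP and 12.57, 11.95, 11.65 and 10.57 in YS. All KNP values of HK1 fell between the YS extremes, and its means were 11.39 ± 0.31 against 11.68 ± 0.84.

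Upper glycolysis commits the sugar at phosphofructokinase, whose subunits are encoded by PFKL (the liver form), PFKM (the muscle form) and PFKP (the platelet form). PFKP was at 7.98, 8.63, 8.91 and 8.17 in KNP and 8.63, 8.93, 9.05 and 8.70 in YS, and PFKL was at 8.15, 8.47, 8.89 and 8.70 in KNP and 9.31, 8.96, 9.16 and 8.18 in YS. The differences of -0.41 ± 0.28 (SE) for PFKP and -0.35 ± 0.32 (SE) for PFKL had the same sign and were lower in KNP in every setting tried, none past the test. KNP replicate 1 was the lowest array for both. PFKM was at 8.27, 9.63, 6.83 and 7.76 in KNP and 8.78, 8.78, 8.47 and 5.32 in YS. It was the most variable gene of the list, with a within-breed SD of 1.45 at the 98.8th percentile of named genes: KNP replicate 2, the array with the muscle markers, was highest, and YS replicate 4 was lowest and below its no-target level. The PFKM difference of 0.28 turned to -0.22 without KNP replicate 2 and to -0.56 without YS replicate 4. The part of muscle RNA or RNA quality in it was not tested.

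The other genes of upper glycolysis also had their lowest value on YS replicate 4. GPI, which converts glucose 6-phosphate to fructose 6-phosphate, was at 11.74 ± 0.31 against 11.79 ± 0.52. ALDOC, the aldolase that splits the sugar, was at 13.91 ± 0.56 against 13.65 ± 0.75, and TPI1, which interconverts the triose phosphates, was at 11.10 ± 0.44 against 11.21 ± 0.48. On YS replicate 4 the values were 11.05 for GPI, 12.63 for ALDOC and 10.55 for TPI1. The differences were -0.057, 0.26 and -0.12.

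**Figure D3:**
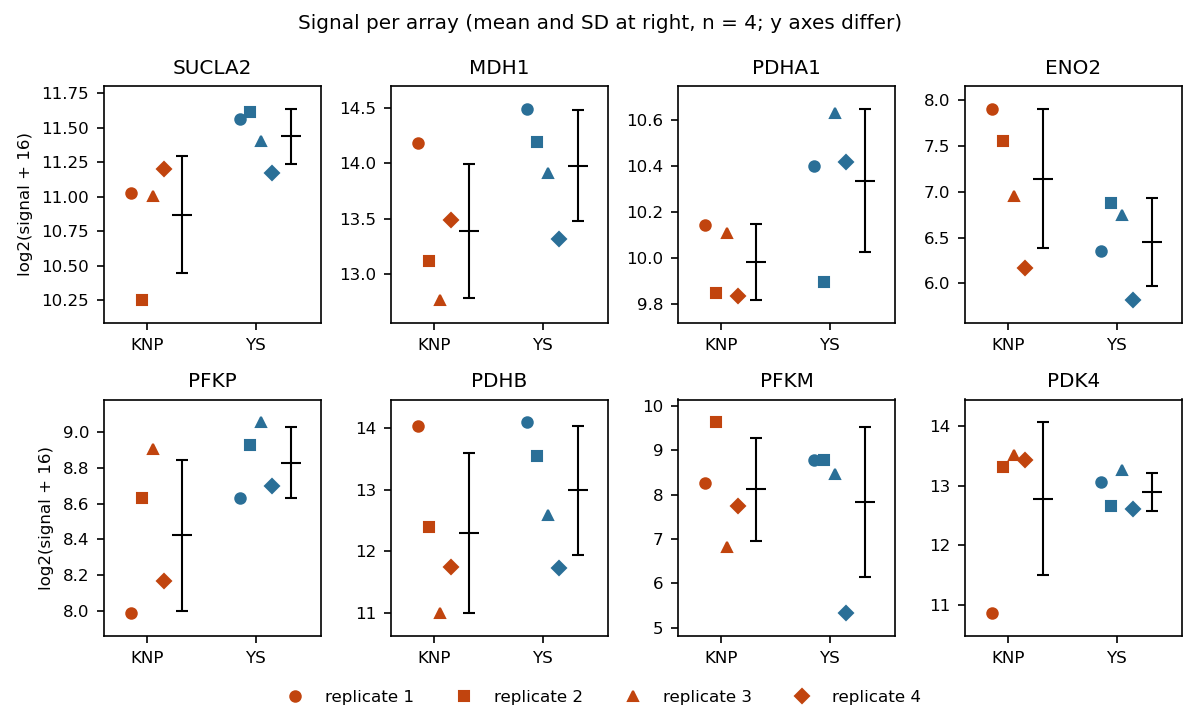
Each point is log2(signal + 16) on 1 array, with the marker showing the replicate, for 8 genes in KNP (orange) and YS (blue); the bar beside each group is the mean and SD over 4 arrays, and y axes differ between panels. The breeds overlap in every panel, PDK4 has KNP replicate 1 far below the rest, and PFKM has YS replicate 4 far below the rest.

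Lower glycolysis runs from GAPDH, which oxidises the triose phosphate, through PGK1, which makes ATP, to the enolases. PGK1 was at 12.68 ± 0.42 against 13.06 ± 0.60, a difference of -0.38 ± 0.36 (SE). ENO2, the neuronal enolase, had the largest positive difference of the list: it was at 7.90, 7.56, 6.95 and 6.17 in KNP and 6.36, 6.88, 6.75 and 5.82 in YS. KNP replicates 1 to 3 lay above every YS array and KNP replicate 4 lay below 3 of them, and the signal was above the no-target level on 3 KNP and 2 YS arrays. The difference of 0.69 ± 0.42 (SE) became 1.02 without KNP replicate 4 and -0.10 without the 3 arrays of largest 3' minus 5' difference. ENO1, the widely expressed enolase, was at 12.63, 13.07, 12.27 and 12.52 in KNP and 13.34, 13.05, 13.15 and 11.43 in YS. Its difference was -0.12, and YS replicate 4 alone lay far below the others. The within-array ratio of ENO1 to ENO2 (exact two-sided permutation p = 0.114) is set by background on the 3 arrays where ENO2 was not above the no-target level, and is not read here.

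GAPDH, which is used as a housekeeping control, had 5 gene probe sets and 9 control probe sets placed along its transcript. The probe set used was at 16.42, 16.32, 15.02 and 15.13 in KNP and 15.66, 15.29, 15.76 and 14.98 in YS, a difference of 0.30 ± 0.39 (SE). Of the 5 GAPDH gene probe sets 1 was higher in KNP and 4 were lower, with differences between -0.22 and 0.30, and the mean of them gave -0.07. The pair of dimmest probe sets lay near the no-target level. Among the control probe sets, a 3' one was at 15.89, 16.28, 14.81 and 14.76 in KNP, while its 5' partner was at 7.02, 9.86, 11.73 and 11.70. In YS the same 2 were at 15.63, 15.15, 15.72 and 14.58 and at 12.70, 11.02, 12.02 and 9.90. The 3' one was high and the 5' one low on KNP replicate 1, and the breed difference read 0.16 at the 3' end and -1.33 at the 5' end of that pair. The other 5' controls gave -0.68 and 0.11, and the other 3' controls -0.30 and 0.28.

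**Figure D4:**
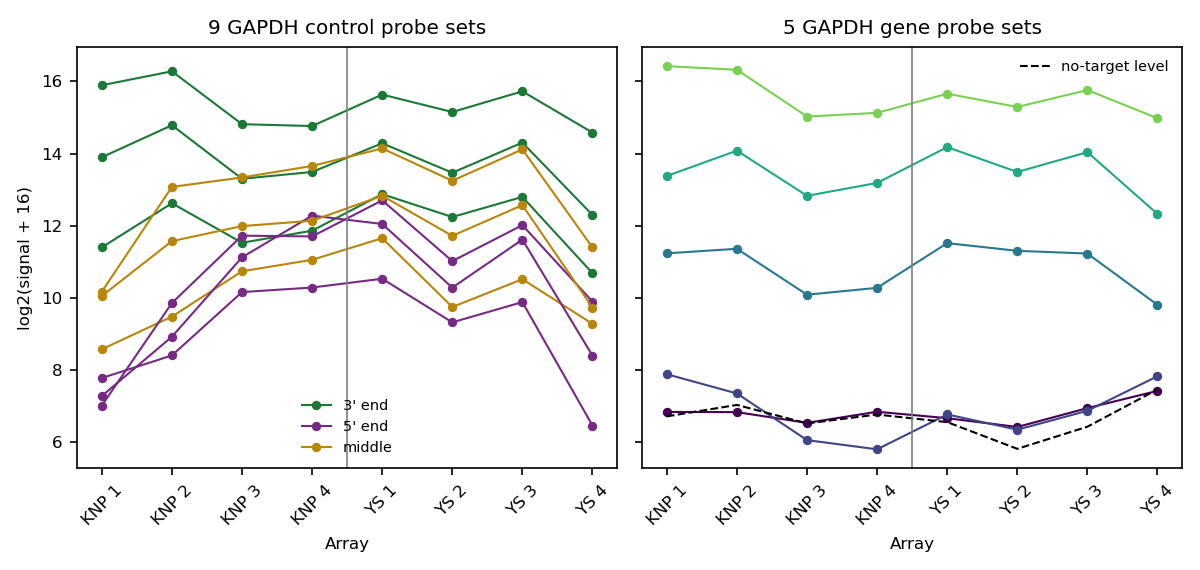
Each line joins the log2(signal + 16) of 1 GAPDH probe set over the 8 arrays, with 9 control probe sets by position in the transcript at left and 5 gene probe sets at right; the dashed line is the no-target level, and lines only link values since arrays have no order. On KNP replicate 1 the 5' controls lie between 7.02 and 7.78, and on YS replicate 1 between 10.53 and 12.70.

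Lactate is made and used by lactate dehydrogenase, built from subunits encoded by LDHA, which favours lactate formation, and LDHB, which favours pyruvate. LDHA was at 12.52, 12.73, 11.04 and 11.71 in KNP and 12.14, 11.98, 11.90 and 11.02 in YS. Its highest values were on KNP replicate 1 and on KNP replicate 2, the array with the muscle markers. Its lowest were on KNP replicate 3 and YS replicate 4. The difference of 0.24 turned to -0.01 without KNP replicate 2 and also without YS replicate 4. The part of muscle RNA in it was not tested. LDHB was at 15.61, 15.64, 15.63 and 14.87 in KNP and 15.40, 15.21, 15.49 and 15.24 in YS, of which KNP replicate 4 alone stood apart. The difference was 0.10 ± 0.26 (SE), with an interval of -0.49 to 0.69. LDHA minus LDHB within an array was -3.44 ± 0.78 in KNP and -3.58 ± 0.46 in YS (exact permutation p = 0.686, two-sided).

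All 4 glycogen genes had the higher mean in KNP, by 0.050 to 0.27, and none passed the test. The mean was also higher in KNP for 3112 of the 6006 named genes. Each of the 4 changed sign with 1 array left out. UGP2 was at -0.037 without KNP replicate 3 and GYS1 at -0.077 without YS replicate 2. Without YS replicate 4, PYGL was at -0.050 and PGM1 at -0.093. UGP2, which makes the UDP-glucose that glycogen is built from, was at 11.79, 11.16, 12.78 and 11.72 in KNP and 11.996, 11.68, 11.66 and 11.04 in YS. KNP replicate 3 was its highest array and YS replicate 4 its lowest. Its other probe set was higher in KNP as well, by 0.52 ± 0.36 (SE). PYGL, the liver-type phosphorylase that breaks glycogen down, was at 11.85 ± 0.20 against 11.80 ± 0.21, and PGM1, which links glycogen to glycolysis, was at 11.49 ± 0.50 against 11.30 ± 0.59. GYS1, a glycogen synthase, was at 8.61 ± 0.53 against 8.44 ± 0.50. For GYS1 the sign depended on the probe set: 1 was higher and 2 were lower in KNP, and their mean gave -0.12. The 2 lower ones were dim: 1 was above the no-target level on 1 KNP and 2 YS arrays, the other on 1 KNP and 1 YS array. Their signs, and the mean that holds them, therefore rest largely on background.

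The pentose phosphate genes had some of the widest spans between arrays. PGD, which makes NADPH in the oxidative branch, was at 11.35, 11.50, 10.18 and 11.49 in KNP and 12.52, 11.93, 11.37 and 10.41 in YS. YS replicate 1 was highest and KNP replicate 3 lowest, and the difference was -0.43 ± 0.49 (SE). It was -0.11 without either of these arrays and -0.81 without YS replicate 4. TKT, the transketolase of the sugar-exchanging branch, was at 14.71, 14.38, 13.21 and 13.25 in KNP and 14.44, 13.92, 13.73 and 12.95 in YS. Its partner TALDO1, the transaldolase, was at 14.75, 13.97, 13.42 and 13.83 in KNP and 14.88, 13.96, 14.55 and 12.98 in YS. For both, KNP replicate 1 and YS replicate 1 were the highest arrays and YS replicate 4 was the lowest. The median deviation of the 3 genes was 0.71 on KNP replicate 1 and 0.84 on YS replicate 1, against -0.62 on KNP replicate 3 and -0.93 on YS replicate 4. ME1, the cytosolic malic enzyme and another source of NADPH, was chosen after its values were seen; it was at 14.66, 13.10, 11.55 and 12.40 in KNP and 14.67, 13.51, 12.81 and 11.62 in YS, with the same arrays at its extremes.

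The pyruvate dehydrogenase complex feeds pyruvate carbon into the citrate cycle. All 4 measured subunit genes had the lower mean in KNP, by a median of -0.30, with none past the test. Of all named genes, 48.2% had the lower mean in KNP. PDHA1, the alpha subunit of the first enzyme, was at 10.14, 9.85, 10.11 and 9.83 in KNP and 10.40, 9.89, 10.63 and 10.42 in YS. All KNP values lay below 3 of the YS values and YS replicate 2 fell among them; the difference was -0.35 ± 0.25 (SE). PDHB, the beta subunit, was at 14.04, 12.39, 11.00 and 11.74 in KNP and 14.09, 13.54, 12.58 and 11.74 in YS. Its difference of -0.70 ± 0.70 (SE) was the most negative of the list with all 8 arrays, but -0.27 without KNP replicate 3 and -1.28 without KNP replicate 1. KNP replicate 1 was close to the top YS array, and its SD was 1.29 in KNP and 1.04 in YS. DLAT, the second enzyme, was at 10.89, 9.70, 8.30 and 9.09 in KNP and 10.19, 9.93, 8.99 and 9.87 in YS. KNP replicate 1 was its highest array and KNP replicate 3 its lowest. The DLAT difference of -0.25 turned to 0.14 without KNP replicate 3. DLD, the third enzyme, which the oxoglutarate complex shares, was at 11.73 ± 0.45 against 11.97 ± 0.23.

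Pyruvate dehydrogenase kinases switch the complex off by phosphorylation, and PDK4 is the form that fasting induces. PDK4 was at 10.86, 13.31, 13.51 and 13.44 in KNP and 13.07, 12.66, 13.27 and 12.61 in YS. On 7 arrays it kept within 12.61 to 13.51, and KNP replicate 1 alone lay below that range. Its other probe set was at 7.70 on KNP replicate 1 and between 10.22 and 12.85 elsewhere. The PDK4 difference was -0.12, 0.52 without KNP replicate 1 and 0.38 with the 3' minus 5' difference as a covariate. PDK3 was at 7.48, 7.88, 8.24 and 7.85 in KNP and 8.11, 8.26, 6.40 and 8.06 in YS. YS replicate 3 was the low one, below its no-target level, and a second PDK3 probe set was removed by the filter on low values. PDK3 minus PDK4 within an array was -4.91 ± 1.03 in KNP and -5.20 ± 1.14 in YS (exact permutation p = 0.743, two-sided).

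PC, the carboxylase that turns pyruvate into oxaloacetate and so refills the citrate cycle, was at 12.85, 14.29, 14.09 and 13.63 in KNP and 13.53, 13.48, 13.75 and 12.39 in YS. KNP replicate 2 was highest, KNP replicate 1 and YS replicate 4 were low, and the difference was 0.43 ± 0.41 (SE). The difference stayed positive in every setting tried, from 0.13 to 0.72 with 1 array left out.

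In the first part of the citrate cycle, from citrate to oxoglutarate, 2 genes had the higher mean in KNP and 5 the lower, and 6 of the 7 intervals lay within 2-fold. CS, the citrate synthase, was at 13.97 ± 0.31 against 13.98 ± 0.38, a difference of -0.0074. Its second probe set gave -0.45 ± 0.34 (SE). ACO1, the cytosolic aconitase that doubles as an iron-sensing RNA-binding protein, was at 13.02, 12.86, 11.84 and 11.95 in KNP. In YS it was at 12.72, 12.41, 12.12 and 11.73, and its 3 probe sets gave differences between -0.15 and 0.37. The value of 0.37 came from a dim probe set, above the no-target level on 3 KNP and 3 YS arrays, and rests partly on background. Of the NAD-dependent isocitrate dehydrogenase subunits, IDH3B was at 10.46, 10.79, 10.42 and 10.29 in KNP and 11.15, 11.01, 11.14 and 10.02 in YS. YS replicate 4 was the lowest of those and the other YS arrays the 3 highest. Its difference of -0.34 ± 0.31 (SE) became -0.61 without YS replicate 4. IDH3A was at 9.01 ± 0.43 against 9.02 ± 0.42 and IDH3G at 9.83 ± 0.13 against 9.97 ± 0.76. A second, dimmer IDH3A probe set was at 4.91, 5.64, 7.94 and 7.40 in KNP and 7.84, 7.74, 7.53 and 7.04 in YS, where KNP replicates 1 and 2 were low. It was above the no-target level on 2 KNP and 3 YS arrays, and not on KNP replicates 1 and 2. Its difference of -1.06 therefore rests partly on background.

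The NADP-dependent isocitrate dehydrogenases are IDH1 in the cytosol and IDH2 in mitochondria. IDH1 was at 13.40, 12.50, 12.28 and 12.61 in KNP and 13.32, 12.91, 12.48 and 12.24 in YS, with KNP replicate 1 and YS replicate 1 highest, as for TKT and TALDO1 but not PGD. IDH2 was at 10.19, 11.04, 10.30 and 10.08 in KNP and 10.14, 10.23, 10.55 and 10.20 in YS, with KNP replicate 2 highest. The differences were -0.037 and 0.13, and IDH1 minus IDH2 within an array was 2.30 ± 0.75 in KNP and 2.46 ± 0.59 in YS (exact permutation p = 0.743, two-sided).

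The second part of the cycle, from oxoglutarate to oxaloacetate, held the gene with the smallest p of the list. SUCLA2, the ADP-linked beta subunit of succinyl-CoA synthetase, was at 11.03, 10.25, 11.00 and 11.20 in KNP and 11.57, 11.61, 11.41 and 11.17 in YS. KNP replicate 4 was just above YS replicate 4, the only pair that crossed, and KNP replicate 2, the array with the muscle markers, was lowest. Its difference was -0.57 ± 0.28 (SE), with an interval of -1.19 to 0.061 and an unadjusted p of 0.0716, and it ranked 219 of 6006 named genes by p. In linear terms its mean was 1.48-fold higher in YS. Without KNP replicate 2 the difference was -0.36. SUCLG2, the GDP-linked beta subunit, was at 11.40, 10.94, 10.59 and 10.81 in KNP and 10.82, 10.97, 10.93 and 10.99 in YS, a difference of 0.0072. SUCLG1, the alpha subunit that both share, was at 12.60 ± 0.27 against 12.60 ± 0.37. SUCLA2 minus SUCLG2 within an array was -0.06 ± 0.55 in KNP and 0.51 ± 0.25 in YS (exact permutation p = 0.114, two-sided).

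MDH1, the cytosolic malate dehydrogenase, was at 14.19, 13.11, 12.76 and 13.48 in KNP and 14.50, 14.19, 13.92 and 13.31 in YS. KNP replicate 1 stood among the high YS arrays and YS replicate 4 among the lower KNP ones, and the difference was -0.59 ± 0.38 (SE). It was lower in KNP in every setting tried, from -0.86 without KNP replicate 1 to -0.38 at the smallest with 1 array left out. MDH2, the mitochondrial form, was at 10.72, 10.32, 10.12 and 9.47 in KNP and 10.75, 10.30, 10.69 and 9.17 in YS, a difference of -0.070. MDH1 minus MDH2 within an array was 3.23 ± 0.64 in KNP and 3.75 ± 0.39 in YS (exact permutation p = 0.229, two-sided). OGDH and DLST, which form the oxoglutarate dehydrogenase complex with DLD, were at 10.22 ± 0.20 against 10.15 ± 0.26 and at 10.51 ± 0.23 against 10.56 ± 0.32, and FH was at 11.28 ± 0.22 against 11.36 ± 0.18. Their differences were 0.073, -0.051 and -0.076, with all 3 intervals within 2-fold.

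Of 16 pairs of genes compared within arrays, 12 could be measured. The smallest exact two-sided permutation p was 0.114, its adjusted value 0.686, and the smallest p that 4 arrays against 4 allow is 0.0286. After adjustment over the 12 pairs a single pair with no overlap could reach only 0.343, and 7 such pairs would be needed for an adjusted p under 0.05, so the design could hardly call a pair. PFKM and PDK3 were not above the no-target level on 1 array each, and ratios that hold them rest on background there. The other pairs were SLC2A1 with SLC2A3 (p = 0.257), PFKL with PFKP (0.914), PFKM with PFKP (0.543), PFKL with PFKM (0.514), PDHA1 with PDK4 (0.8) and ACO1 with IDH1 (0.543), all by the exact permutation test. No pair had breeds that did not overlap.

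**Figure D5:**
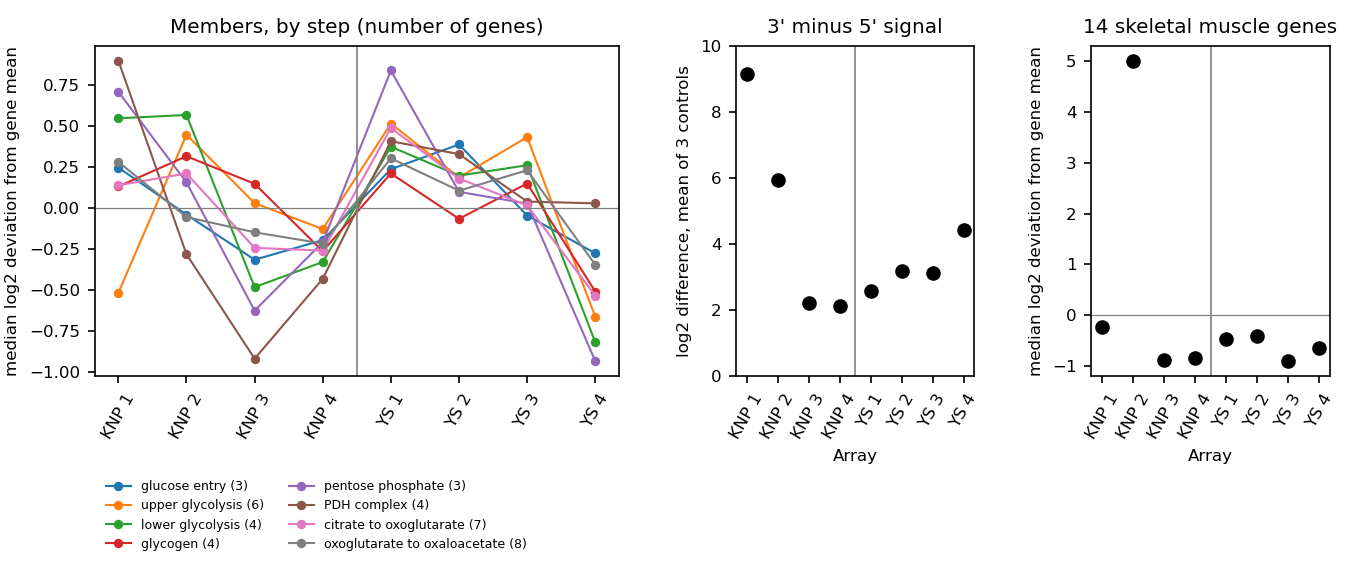
Left, the median deviation from the gene mean in log2(signal + 16) on each array for the 8 pathway steps with at least 3 genes; middle, the log2 difference of 3' minus 5' signal averaged over 3 housekeeping controls; right, the median deviation of 14 skeletal muscle genes. Lines only link values of a step; YS replicate 4 is the lowest array for 6 of the 8 steps, KNP replicate 3 for the pyruvate dehydrogenase complex and for glucose entry, and muscle genes stand apart on KNP replicate 2.

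Leaving out KNP replicate 1, KNP replicate 2 and YS replicate 4, the arrays of largest 3' minus 5' difference, moved the list to one side, in a comparison of 2 KNP with 3 YS arrays chosen after seeing the data. The mean was then lower in KNP for 37 of 44 genes (51.1% of named genes), with a median of -0.43, while the median of all named genes was -0.01. The members' median deviation was 0.19 and 0.14 on the KNP arrays dropped and -0.54 on the YS array dropped. It was -0.14 and -0.21 on the KNP arrays kept, and 0.10 to 0.35 on the YS arrays kept. The shift thus restates which arrays were dropped and is no separate support for a breed difference. Its cause was not tested. An unadjusted p under 0.05 was reached by 9 genes (20.5%, against 8.09% of named genes), all lower in KNP: HK1, PFKM, PGK1, ENO1, TKT, IDH3B, MDH1, MDH2 and PDHB. The count past an adjusted p of 0.05 was still 0, with a smallest value of 0.47. On these 5 arrays PDHB differed by -2.03, PFKM by -1.38 and MDH1 by -1.08. With all 8 arrays and the 3' minus 5' difference as a covariate, the median was -0.07 and 27 genes were lower.

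Other genes of the same routes were taken from a list of 87, of which 48 had a probe set and 45 passed the filter. Of the 45, 23 had the higher mean in KNP and 22 the lower, with a median difference of 0.0060, and 0 passed an adjusted or unadjusted p of 0.05. GYG1, the protein primer on which glycogen is started, was the only 1 with no overlap (1.25% of named genes lay wholly above in KNP and 0.833% wholly below), at 10.15, 9.99, 9.65 and 9.96 in KNP and 9.61, 9.49, 9.57 and 9.26 in YS. Its difference was 0.45 ± 0.23 (SE). The muscle forms ENO3, PGAM2 and PYGM were at 12.80, 11.47 and 11.89 on KNP replicate 2. They were at no more than 6.64, 7.77 and 8.46 on any other array. These genes are among the skeletal muscle markers measured above, so their values restate that signal and are no separate observation. PKM, the pyruvate kinase that ends glycolysis, was at 9.75 ± 0.22 against 9.67 ± 0.19. The insulin-regulated transporter gene SLC2A4 was at 7.45 ± 0.86 against 7.87 ± 0.90. It was above the no-target level on 3 KNP and 4 YS arrays, so its KNP mean rests partly on background. The succinate dehydrogenase genes SDHA, SDHB, SDHC and SDHD were chosen after their values were seen. All had the lower mean in KNP, by -0.21, -0.15, -0.78 and -0.33, none past the test. YS replicate 1 was the highest array for each of them, so their shared sign is not a set of separate observations.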

How the data were processed

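Backfat RNA of 4 KNP and 4 YS samples was measured on 1 Affymetrix porcine array each. The deposited table holds 1 signal intensity per probe set and array on a linear scale; the trimmed mean of 500.1 on every array shows that the authors had scaled the arrays alike. The algorithm that summarised the probes was not given in the sources used here, so how it treats dim or degraded RNA is unknown. Of 24123 probe sets, 124 controls were left out, 16 was added to the intensity, log2 was taken, and the 25% of the 23999 others with the lowest mean were removed. limma 3.58.1 in R 4.3.3 compared the breeds over the 17999 remaining probe sets, with p-values adjusted by Benjamini and Hochberg over all of them and called at 0.05. The fit was tested on simulated data. Probe sets were named from GEO's platform annotation, used only where they carried 1 gene symbol: of those tested, 8247 had 1 symbol, 161 several and 9591 none. Symbols of the 7 genes not measured were also looked for by gene ID. The 13 tested probe sets for reporter genes were left out in an alternative. The probe set of highest mean stood for a gene.

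The members and lists were chosen with earlier results of these data known. Every measured gene is named by pathway step. Values on each array are given for the gene of smallest p in a step, for genes with several isoforms, for genes whose breeds do not overlap or whose unadjusted p is under 0.05, and for further genes where arrays stand apart, chosen after their values were seen. Other genes of the routes are named by no overlap or by p; ME1, PKM, SLC2A4, the succinate dehydrogenase genes and the muscle forms were added after their values were seen. Isoform pairs were compared as differences within an array by an exact two-sided permutation test over 70 splits. Alternatives were quantile normalization, median centring, pseudocounts of 1 and 64, no filter and a 50% filter, trend and robust fitting, array weights, a replicate block, the 3' minus 5' difference as a covariate, averaging the probe sets of a gene, an adjusted p of 0.10 and leaving out each array; leaving out 3 arrays together or the reporter probe sets was added after seeing the data. The number of arrays limits the precision. Sequences and genome positions were not used here.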

Additional observations from a re-analysis of the deposited data

Results flagged for a closer look

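Among the 88 groups of 4 arrays (44 genes in 2 breeds), 10 held 1 array whose gap to the others took up more of the group's range than Dixon's 95% critical value allows; chance gives about 1 in 20 groups. On these arrays 6.31% of such groups over all named genes did (5.09% in KNP and 7.53% in YS), beside 11.4% of the 88. In YS, replicate 4 was lowest for PFKM at 5.32, for ENO1 at 11.43 and for IDH3B at 10.02, replicate 3 was lowest for PDK3 at 6.40, and replicate 1 was highest for SLC2A3 at 10.01. In KNP, replicate 1 was lowest for PDK4 at 10.86 and highest for FH at 11.60, replicate 3 was lowest for PGD at 10.18, and replicate 4 was lowest for LDHB at 14.87 and for IDH3A at 8.37. Values are log2(signal + 16).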

How the results depend on the processing

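The count of 0 genes past an adjusted p of 0.05 (limma) held in each of 22 alternatives. An unadjusted p under 0.05 was reached by 0 to 9 of the 44, beside 1.86% to 8.09% of named genes. With array weights 5 reached it, all lower in KNP: PGK1, IDH3B, SUCLA2, MDH1 and PDHB (4.91% of named genes). Trend and robust fitting gave SUCLA2 (2.96%), leaving out KNP replicate 1 gave MDH1 (3.68%) and leaving out YS replicate 4 gave IDH3B (3.96%). Leaving out KNP replicate 4 gave ENO2, higher in KNP (2.78%). The median difference of -0.04 was -0.04 with the replicate block as well, 0.09 without YS replicate 1, 0.04 without KNP replicate 4, 0.01 without YS replicate 3, -0.20 without YS replicate 4, -0.21 with array weights and -0.43 without the 3 arrays of largest 3' minus 5' difference; the cause was not tested. The 0 calls among isoform pairs in 13 alternatives say nothing about stability, since the exact permutation test could hardly pass the adjusted threshold with 8 arrays or with 7. The labels do not say that replicate numbers pair the samples. As deviations from their breed mean, same-numbered arrays correlated at -0.17, 0.02, 0.13 and -0.19. Arrays that differ in RNA quality and muscle signal could hide a pairing, so these values do not exclude one. The replicate block changed no call. The 50% filter removed ENO2.

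The sign changed in at least 1 alternative for 30 of 44 genes and in none for 14: SLC2A1, SLC2A3, PFKL, PFKP, PGK1, PGD, IDH3B, DLD, SUCLA2, FH, MDH1, PDHA1, PDHB and PC. Differences of changed sign were, with quantile normalization, LDHB -0.0096, IDH3A 0.030, SUCLG1 -0.035 and SUCLG2 -0.019; with a pseudocount of 64, SUCLG1 -0.00010; with array weights, PFKM -0.58, GAPDH -0.0096, LDHA -0.15, PGM1 -0.10, TKT -0.31, ACO1 -0.14, OGDH -0.020, SUCLG1 -0.20, SUCLG2 -0.092 and PDK4 0.22; with the 3' minus 5' covariate, GPI 0.051, TKT -0.13, ACO1 -0.037, SUCLG1 -0.073, SUCLG2 -0.14 and PDK4 0.38; and with the mean of probe sets, GAPDH -0.068 and GYS1 -0.12. Without the 3 arrays they were PFKM -1.38, GAPDH -0.49, ENO2 -0.10, LDHA -0.64, LDHB -0.12, GYS1 -0.15, PGM1 -0.47, TKT -0.80, ACO1 -0.52, IDH2 -0.11, OGDH -0.16, SUCLG1 -0.40, SUCLG2 -0.21 and PDK4 0.47. With 1 array left out the ranges that crossed 0 were -0.67 to 0.0013 for HK1, -0.30 to 0.094 for GPI, -0.56 to 0.71 for PFKM, -0.087 to 0.50 for ALDOC, -0.34 to 0.046 for TPI1, -0.56 to 0.077 for ENO1, -0.011 to 0.56 for LDHA, -0.050 to 0.11 for PYGL, -0.077 to 0.40 for GYS1, -0.037 to 0.50 for UGP2, -0.093 to 0.36 for PGM1, -0.15 to 0.35 for TKT, -0.47 to 0.16 for TALDO1, -0.27 to 0.16 for IDH1, -0.19 to 0.11 for CS, -0.029 to 0.36 for ACO1, -0.087 to 0.23 for IDH2, -0.14 to 0.19 for IDH3A, -0.52 to 0.018 for IDH3G, -0.022 to 0.18 for OGDH, -0.20 to 0.055 for DLST, -0.18 to 0.10 for SUCLG1, -0.15 to 0.12 for SUCLG2, -0.42 to 0.16 for MDH2, -0.72 to 0.14 for DLAT, -0.28 to 0.34 for PDK3 and -0.37 to 0.52 for PDK4. For the other genes the ranges did not cross 0: -0.27 to -0.048 for SLC2A1, 0.14 to 0.63 for SLC2A3, -0.59 to -0.22 for PFKL, -0.57 to -0.26 for PFKP, 0.069 to 0.53 for GAPDH, -0.66 to -0.19 for PGK1, 0.44 to 1.02 for ENO2, 0.032 to 0.29 for LDHB, -0.81 to -0.11 for PGD, -0.61 to -0.23 for IDH3B, -0.45 to -0.10 for DLD, -0.68 to -0.36 for SUCLA2, -0.18 to -0.023 for FH, -0.86 to -0.38 for MDH1, -0.50 to -0.26 for PDHA1, -1.28 to -0.27 for PDHB and 0.13 to 0.72 for PC.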

Other observations

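Carriers that move pyruvate and citrate across the mitochondrial membrane were chosen for description after their values were seen. SLC25A1, which exports citrate to the cytosol where fat is made from it, was at 12.45, 12.49, 10.30 and 11.53 in KNP and 13.89, 12.33, 12.40 and 10.28 in YS on the log2(signal + 16) scale. YS replicate 1 was highest, KNP replicate 3 and YS replicate 4 were lowest, and the difference was -0.53 ± 0.76 (SE). MPC2, a subunit of the mitochondrial pyruvate carrier, was at 14.91, 13.61, 12.98 and 13.19 in KNP and 14.52, 13.95, 13.77 and 13.03 in YS, with KNP replicate 1 and YS replicate 1 highest. PDP2, a phosphatase that switches the pyruvate dehydrogenase complex back on, was at 8.99, 9.04, 8.55 and 8.64 in KNP and 9.79, 9.63, 9.09 and 8.88 in YS. It had the second smallest p among the other genes of these routes, and its difference was -0.54 ± 0.29 (SE). None of these passed the test.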
